A study of Mus musculus with 8 samples.

Results

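Laminin chain transcripts were followed in mouse embryonic stem cells (ESCs) during JUN-induced pluripotent-somatic transition. Of the 50600 gene rows of the deposited table, 8 laminin chain genes are described, namely *Lama1*, *Lama3*, *Lama4*, *Lama5*, *Lamb1*, *Lamb2*, *Lamb3* and *Lamc1*. The list was made by gene name and holds alpha, beta and gamma chains. Laminin-332 is represented by *Lama3* and *Lamb3*, laminin-111 by *Lama1*, *Lamb1* and *Lamc1*, and laminin-511 by *Lama5*, *Lamb1* and *Lamc1*. All 8 libraries came from feeder-free OG2 ESCs, which carry an Oct4-GFP reporter, of mixed 129SVJ, C57B6 and CBA background with a c-Jun TetOn transgene, at passage P12, in 2i medium with LIF. All received 2 µg/ml doxycycline, which switches JUN on, and the labels give 6 h of treatment. The study describes a longer JUN induction than compound treatment for these libraries, so the time for which JUN was on is not settled here. In addition, 1 group was given the solvent DMSO, 1 PFI-3, 1 BI-9564 and 1 the pair of compounds (P+B), so that 4 groups of 2 libraries were compared. PFI-3 is an inhibitor of the bromodomains of BRG1 and its relative BRM, and BI-9564 of those of BRD7 and BRD9, which are subunits of BAF chromatin remodelling complexes. ESCs without doxycycline were not analysed here, so all values describe cells in which JUN was on. How much of each inhibitor went into P+B is not clear from the sources used here, so P+B and the single compounds may not be at matched doses. The sources do not say whether replicates came from separate cultures, so p-values measure the spread between these libraries only.

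Laminins are secreted proteins of the basement membrane, each built from an alpha, a beta and a gamma chain, and they are named by the numbers of their chains. Laminin-111 is the laminin of the early embryo, and laminin-511 is the form widely used as a substrate for pluripotent cells. Laminin-332 anchors stratified epithelia to the dermis through integrins and collagen VII. The beta and gamma chains pair inside the cell before an alpha chain joins them, and cells bind the finished trimer through integrins and dystroglycan. The comparisons ask which chains differed when inhibitors of these bromodomains were added while JUN was on. Whether a difference came through the bromodomains was not tested.

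The deposited values are TPM, transcript abundances scaled to a fixed library sum, made whole numbers. TPM is a level per transcript length, so levels of different chains can be set side by side. Library sums were 991574 to 991897. TPM keeps no read depth, so counting error is unknown, and at low levels a step of 1 TPM is a large share of the value. Tests were made on log2(TPM + 1) with limma over the 10222 genes whose mean reached 5 TPM, and fold changes on this scale understate the change of low genes. A gene was called when its adjusted p (Benjamini-Hochberg) was under 0.05 and its fold change at least 1.5. Of the 8 chains 6 passed the filter on low values and were tested. *Lamb3*, with a mean of 1.75 TPM over the 8 libraries, and *Lama4*, listed at 0 in all 8, did not.

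With DMSO, the chains ranked from *Lamc1* at 208.5 ± 16.3 TPM (SD, n = 2) through *Lama5* at 68.5 ± 10.6, *Lama3* at 27.5 ± 4.95, *Lamb2* at 25 ± 2.83, *Lamb1* at 11 ± 0 and *Lama1* at 8 ± 0 to *Lamb3* at 2.5 ± 0.707. Only *Lama3* and *Lamb2* overlapped among neighbours in this order. With P+B, *Lamc1* (187.5 ± 3.54 TPM) and *Lama5* (74.5 ± 10.6) led again, *Lamb2* (28 ± 2.83) was next, and *Lama3* (7.5 ± 0.707) came after *Lamb1* (11 ± 1.41). No neighbours overlapped in that order. The summed beta chains were 38.5 ± 3.54 TPM in the DMSO libraries and 40.5 ± 3.54 in those with P+B, and *Lamc1* alone exceeded them in every library.

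**Figure D1:**
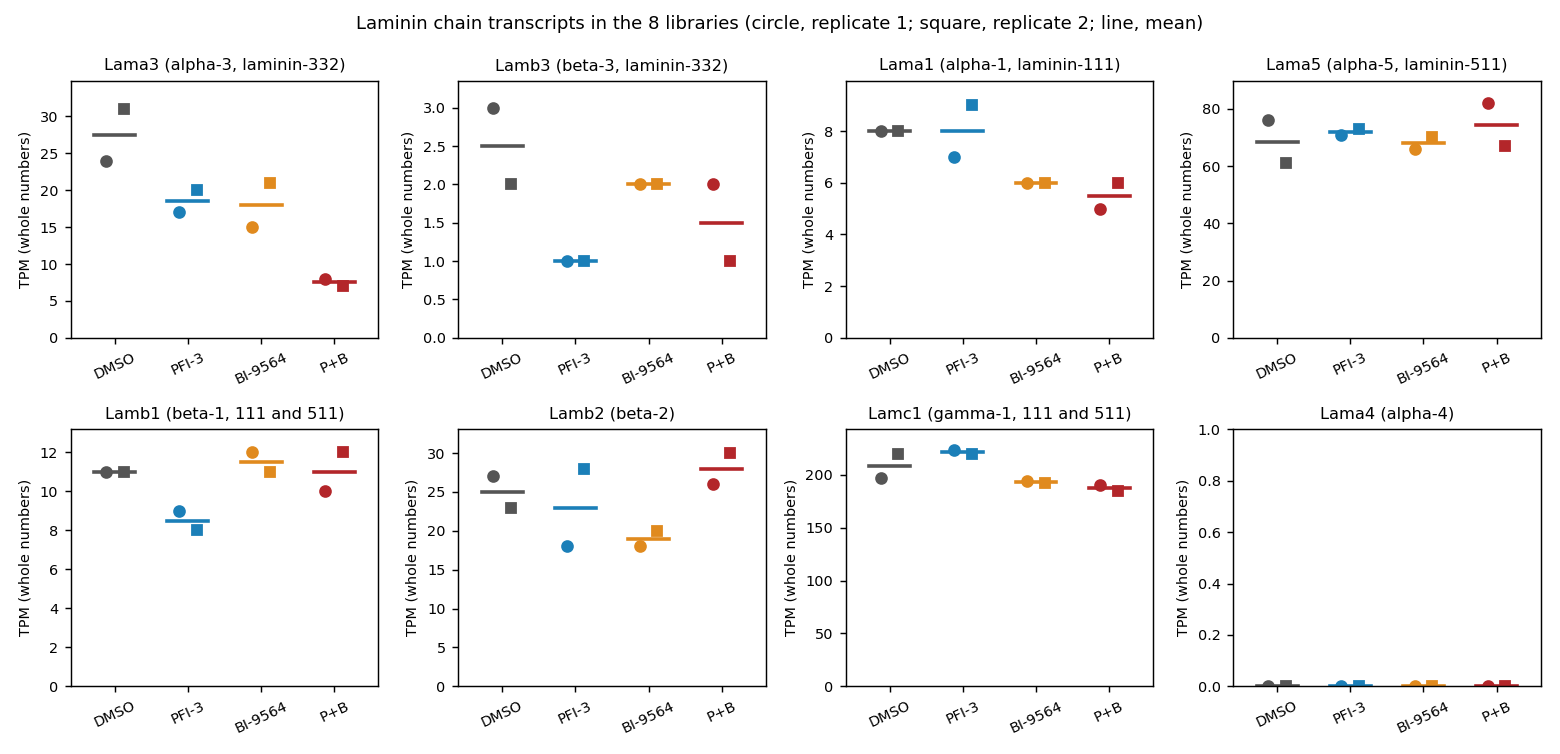
TPM of the 8 chains described in each library, by treatment (vertical axes in TPM, each panel with its own scale from 0; circles are replicate 1, squares replicate 2, lines the mean of 2). Lama3 lies at 24 and 31 with DMSO and at 8 and 7 with P+B, while Lama5, Lamb1 and Lamb2 overlap between these groups.

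Among the 6 tested chains, *Lama3* alone was called lower with P+B against DMSO, and 5 did not pass the thresholds. Over all genes 4.0% were called in this comparison and 2.72% were called lower. With 6 chains tested, 1 call is too few to set the chains as a family apart from other genes. The median log2 difference of the 6 chains was −0.08, against 0.06 over all 10222 genes tested, and 4 of the 6 were below 0, against 41.7% of all genes. By trimer, the 1 chain called lower is the alpha chain of laminin-332. Of the laminin-111 chains 0 of 3 were called, and of the laminin-511 chains 0 of 3, and these share *Lamb1* and *Lamc1*. *Lamb3*, the beta chain of laminin-332, averaged 1.75 TPM and was not tested. The called fall is therefore that of 1 chain, which does not show that the others were unchanged. Both P+B libraries also lay below both DMSO libraries for *Lama1* and *Lamc1*, while *Lama5*, *Lamb1* and *Lamb2* overlapped. Which trimers the cells made was not measured.

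*Lama3* encodes the alpha chain of laminin-332, which carries the integrin-binding globular domains of the trimer. With DMSO *Lama3* averaged 27.5 TPM and *Lamb3* 2.5, so the level of *Lama3* cannot be read as that of laminin-332. *Lama3* had 24 and 31 TPM in the DMSO libraries and 17 and 20 in the PFI-3 libraries. It had 15 and 21 TPM in the BI-9564 libraries and 8 and 7 in the P+B libraries. The DMSO libraries were the 2 highest and the P+B libraries the 2 lowest, with no overlap, and the single-compound libraries lay between them and overlapped each other. With P+B the log2 fold change was −1.74 (standard error 0.22, 95% interval −2.24 to −1.23, adjusted p = 0.00517 from limma), and the mean TPM was 3.67-fold lower. With the replicate block the adjusted p was 0.00216 from limma, and the fits that follow had no block. Leaving out DMSO replicate 2 or P+B replicate 2 ended the call (adjusted p = 0.0606 and 0.0594), with log2 fold changes of −1.56 and −1.65. The fit of only the 4 libraries compared also did, with an adjusted p of 0.1 from limma. *Lama3* lies on chromosome 18 of mm10 (GRCm38) from 12333819 to 12583013. Its span holds 4 other annotated genes, 3 of them on the opposite strand, and the sources used here do not state whether counting used the strand, so reads of overlapping genes cannot be told apart.

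None of the other alpha chains was called. *Lama5*, the alpha chain of laminin-511, had 76 and 61 TPM with DMSO and 82 and 67 with P+B, and the groups overlapped. The log2 difference between P+B and DMSO was 0.12 (95% interval −0.20 to 0.44, adjusted p = 0.662 from limma), an interval that does not reach a fold change of 1.5 in either direction. *Lama1*, the alpha chain of laminin-111, had 8 and 8 TPM in the DMSO libraries, 7 and 9 in those with PFI-3, 6 and 6 in those with BI-9564 and 5 and 6 in those with P+B. Both P+B libraries and both BI-9564 libraries were below DMSO, by 2 or 3 TPM. The log2 fold change with P+B was −0.47 (95% interval −1.07 to 0.12, adjusted p = 0.324 from limma). This interval reaches past a fold change of 1.5, so a fall of that size in *Lama1* was not separable from no change. *Lama4*, an alpha chain of endothelial and muscle basement membranes, was listed at 0 throughout. *Lama5* lies on chromosome 2 from 180176373 to 180225859 and *Lama1* on chromosome 17 from 67697259 to 67822647.

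*Lamc1* encodes the gamma chain shared by laminin-111 and laminin-511 and was the most abundant chain in every group. The DMSO libraries had 197 and 220 TPM, the PFI-3 libraries 223 and 220, the BI-9564 libraries 194 and 192 and the P+B libraries 190 and 185. Both P+B libraries lay below both DMSO libraries, by 7 to 35 TPM. The log2 fold change was −0.15 (95% interval −0.34 to 0.04, adjusted p = 0.325 from limma), which does not reach a fall of 1.5-fold. *Lamc1* lies on chromosome 1 from 153218922 to 153332786.

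The beta chains showed no called change. *Lamb1*, the beta chain of laminin-111 and laminin-511, had 11 and 11 TPM in the DMSO libraries, 9 and 8 after PFI-3, 12 and 11 after BI-9564 and 10 and 12 after P+B. The P+B values lay on both sides of DMSO (log2 fold change −0.01, 95% interval −0.47 to 0.46, adjusted p = 0.999 from limma). *Lamb2*, a beta chain of the basement membranes of muscle, nerve and kidney, was the most abundant beta chain, with 27 and 23 TPM in the DMSO libraries, 18 and 28 after PFI-3, 18 and 20 after BI-9564 and 26 and 30 after P+B. Its PFI-3 replicates differed more from each other than any 2 groups did in their means. *Lamb2* had a log2 fold change of 0.16 with P+B (95% interval −0.33 to 0.65, adjusted p = 0.712 from limma). *Lamb3*, the beta chain of laminin-332, was close to the floor of the table, with 3 and 2 TPM in the DMSO libraries, 1 and 1 after PFI-3, 2 and 2 after BI-9564 and 2 and 1 after P+B. Its group means differed by 1.5 TPM or less, where the table resolves steps of 1 TPM. When genes whose mean reached 1 TPM were tested, *Lamb3* had a log2 fold change of −0.50 with P+B (95% interval −1.43 to 0.43, adjusted p = 0.528 from limma). A fall of its TPM by the 3.67-fold seen for *Lama3* would be −1.06 on this scale, which lies inside the interval, so such a fall of *Lamb3* was not separable from no change. In GENCODE M21 *Lamb3* spans chromosome 1 from 193207699 to 193343878. Over this span it overlaps 6 annotated genes, among them the coding genes *Hsd11b1* and *G0s2* on the opposite strand. *Lamb1* lies on chromosome 12 from 31265234 to 31329644 and *Lamb2* on chromosome 9 from 108479736 to 108490530.

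The 250 bases upstream of the annotated starts are shown for the beta chains that set laminin-332 apart from laminin-111 and laminin-511, because the study concerns JUN, whose AP-1 dimers bind TGACTCA and its reverse complement TGAGTCA. RefSeq windows on GRCm38.p6 were held for 4 of the 8 chains (*Lamb3* with 2 starts, *Lamb1*, *Lamb2* and *Lama5*), with 50 further bases after each start. Capitals mark each CG dinucleotide, and both sequences are on the plus strand, at chr1:193301744-193301993 for *Lamb3* (the more upstream of its 2 RefSeq starts) and at chr12:31265043-31265292 for *Lamb1*. The span of *Lamb3* given above is from GENCODE M21 and begins at 193207699. Both *Lamb3* windows therefore lie inside that span, and the region before its GENCODE start was not searched.
Lamb3: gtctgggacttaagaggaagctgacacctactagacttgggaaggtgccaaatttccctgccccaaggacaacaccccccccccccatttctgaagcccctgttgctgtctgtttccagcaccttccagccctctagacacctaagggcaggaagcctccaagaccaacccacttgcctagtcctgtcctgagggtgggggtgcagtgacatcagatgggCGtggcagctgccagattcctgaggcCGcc
Lamb1: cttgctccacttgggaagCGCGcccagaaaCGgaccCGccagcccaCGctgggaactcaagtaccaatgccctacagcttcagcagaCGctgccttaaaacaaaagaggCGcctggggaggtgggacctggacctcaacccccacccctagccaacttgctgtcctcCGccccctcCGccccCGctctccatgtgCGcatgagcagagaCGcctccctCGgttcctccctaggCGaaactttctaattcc
The *Lamb3* stretch holds 2 CG dinucleotides and that of *Lamb1* 14, against a median of 6 over the 32851 windows of all genes. The second *Lamb3* start had 3, *Lamb2* 3 and *Lama5* 19. TGACTCA or TGAGTCA, searched on both strands, was in 0 of the 5 windows of these chains and in 5.20% of all windows. This says only that the letters are not in these windows, of which the 2 for *Lamb3* overlap. No window was held for *Lama3*, the chain called with P+B, so it was not searched.

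Set against each other within each library, *Lama3* took a smaller share with P+B. *Lama3* made up 22.2% and 31.0% of all alpha chain TPM in the DMSO libraries, 17.9% and 19.6% after PFI-3, 17.2% and 21.6% after BI-9564 and 8.42% and 8.75% after P+B. *Lama5* took the larger part of the alpha chains, at 65.7% ± 6.63 in the DMSO libraries and 85.0% ± 1.81 in those with P+B (SD, n = 2). These shares lay apart between DMSO and P+B without overlap. They are parts of one sum, so a lower *Lama3* by itself raises the share of *Lama5*. The TPM of *Lama5* overlapped between these groups. *Lamb3* never made up more than 7.32% of the beta chains.

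**Figure D2:**
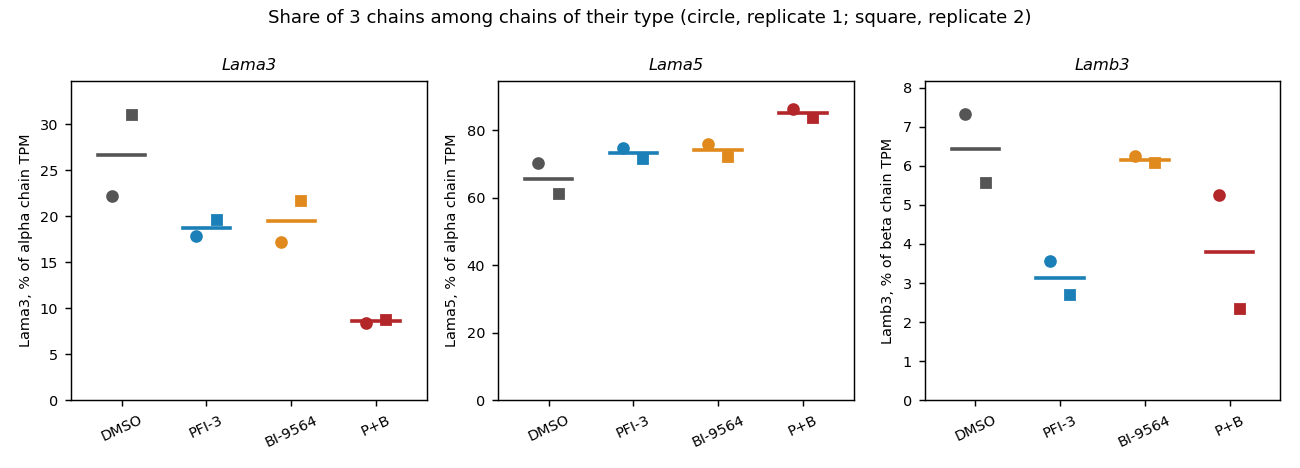
Share of Lama3 and of Lama5 among alpha chains and of Lamb3 among beta chains, as a percentage of summed TPM (vertical axes from 0, each panel with its own scale; circles are replicate 1, squares replicate 2, lines the mean of 2). The P+B libraries lie lowest for Lama3 (8.42% and 8.75%) and highest for Lama5 (mean 85.0%), while the Lamb3 panel rests on values of 1 to 3 TPM.

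As ratios, *Lama3* to *Lama5* averaged 0.412 ± 0.136 in the DMSO libraries and 0.101 ± 0.00489 in those with P+B (SD, n = 2), and *Lama3* to *Lama1* was 3.44 ± 0.619 and 1.38 ± 0.306. *Lamb3* to *Lamb1* averaged 0.227 ± 0.0643 and 0.142 ± 0.0825, with overlapping libraries. An exact two-sided permutation test of both *Lama3* ratios gave p = 0.333, the smallest that 2 libraries against 2 allow, and 0.5 after Benjamini-Hochberg adjustment over the 3 ratios, so the design cannot bring such a ratio under 0.05. The summed alpha chains without *Lama3* were 76.5 ± 10.6 TPM with DMSO and 80.0 ± 9.90 with P+B, with overlapping libraries. In bulk RNA, fewer cells that express a chain and less RNA per cell cannot be told apart.

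No chain was called with a single compound. In PFI-3 against DMSO, 0 of the 6 chains were called by limma and 1, *Lama3*, had an unadjusted p under 0.05, where 0% of all genes were called and 6.79% had such an unadjusted p. With BI-9564 the count was again 0 of 6, and 1 at an unadjusted p under 0.05 (*Lama3*), where 0.108% of all genes were called and 14.9% had such a p. The log2 fold change of *Lama3* was −0.54 with PFI-3 (95% interval −1.04 to −0.04, adjusted p = 0.694 from limma) and −0.59 with BI-9564 (−1.10 to −0.09, adjusted p = 0.279). With the replicate number as a block, limma again called 0 of the 6 chains with BI-9564, where 1.53% of all genes were called. These comparisons share the DMSO libraries.

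**Figure D3:**
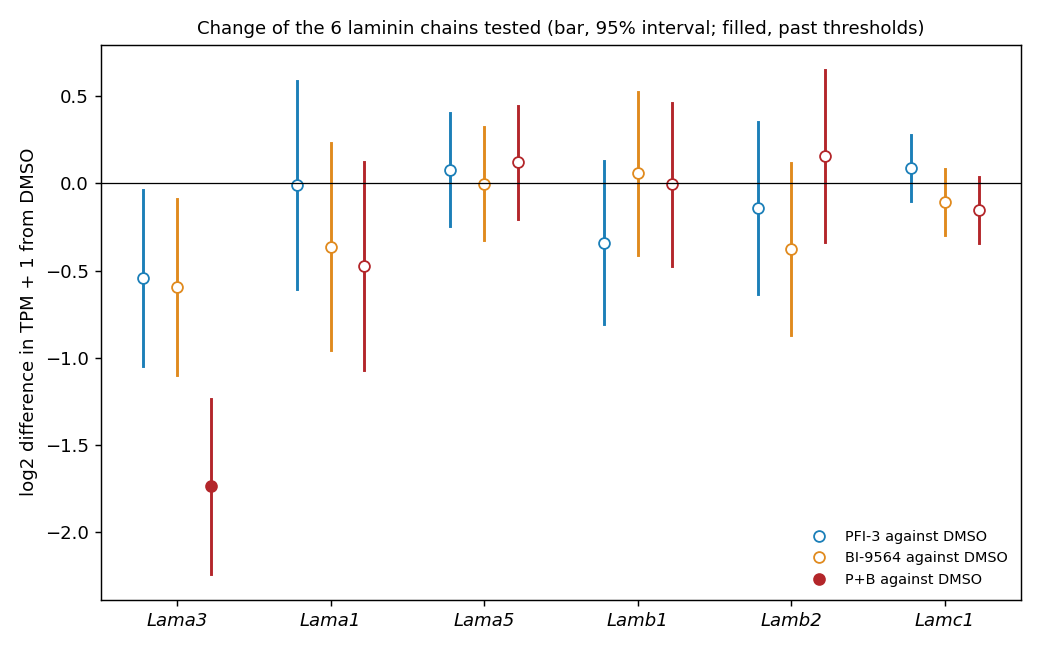
Log2 difference from DMSO in TPM + 1 for the 6 chains tested, by treatment (points are limma estimates from 2 libraries a group, bars their 95% intervals, filled points past both thresholds). Lama3 at −1.74 with P+B is the filled point, and the intervals of Lama1, Lama5, Lamb1, Lamb2 and Lamc1 include 0 with each treatment.

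Compared directly, *Lama3* was lower after P+B than after PFI-3 alone (log2 difference −1.20, 95% interval −1.70 to −0.69, adjusted p = 0.0433 from limma). It was the 1 chain of 6 called, where 1.31% of all genes were. Without the block this call lay close to the threshold and was lost with each of the 8 libraries left out in turn. With the replicate block the adjusted p of *Lama3* was 0.0164 from limma, where 351 of all genes were called. Against BI-9564, 0 of the 6 chains were called with P+B by limma and 2 had an unadjusted p under 0.05 (*Lama3* and *Lamb2*), where 0.196% of all genes were called and 7.97% had such a p. *Lama3* had a log2 difference of −1.14 (95% interval −1.65 to −0.64, adjusted p = 0.152), and with the replicate block it passed (adjusted p = 0.046 from limma), where 0.802% of all genes did. *Lamb2*, by contrast, had 0.53 (95% interval 0.04 to 1.03, adjusted p = 0.578).

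Between BI-9564 and PFI-3, 0 of the 6 chains were called by limma and 1 (*Lamc1*) had an unadjusted p under 0.05, where 0.108% of all genes were called and 14.2% had such a p. *Lama3* differed by −0.05 (95% interval −0.56 to 0.45), an interval that does not reach 1.5-fold on the log2(TPM + 1) scale. In the test of P+B against the sum of the single compounds, 0 of 6 chains were called by limma and 0 had an unadjusted p under 0.05, and 0% of all genes were called and 3.26% had such a p. *Lama3* had −0.60 (95% interval −1.32 to 0.11, adjusted p = 1 from limma). This sum assumes matched doses, which are not settled here.

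Receptors and partners of laminins were followed with lists written from general knowledge, with earlier results of these data known. Their counts and medians are therefore a description and not an independent test. Of 12 laminin receptor genes 10 were tested, 3 fell with P+B, 0 rose and 7 did not pass. Over all genes 2.72% were called lower. The median log2 difference of the receptors was −0.36, against 0.06 over all genes, and 8 of 10 were below 0, against 41.7% of all genes. The 3 were *Itga3*, *Itga6* and *Itga7*, alpha subunits of the integrins that bind laminins. *Itga6*, a subunit of the laminin-332 receptors of epithelia, had 201 and 177 TPM with DMSO and 76 and 70 after P+B (a log2 difference of −1.36, adjusted p = 0.001 from limma). *Itga3* had 61 and 75 TPM against 18 and 16 (−1.93, adjusted p = 0.001), and *Itga7*, best known from muscle, 9 and 13 TPM against 2 and 2 (−1.98, adjusted p = 0.0203). Against the single compounds, *Itga3* and *Itga6* were lower with P+B as well. The differences were −1.10 and −0.91 against PFI-3 (adjusted p = 0.0176 and 0.0111 from limma). Against BI-9564 they were −1.10 and −0.83 (adjusted p = 0.0402 and 0.0361 from limma). With only the libraries compared, 0 of all genes were called by limma in either comparison. These calls of *Itga3* and *Itga6* therefore needed libraries of the other groups in the fit. *Itgb1*, their common beta partner, had 200 and 201 TPM with DMSO and 152 and 149 with P+B, and its difference of −0.41 had an adjusted p of 0.0266 but was under 1.5-fold. *Itgb4*, the partner of *Itga6* in hemidesmosomes, was low, at 9 and 5 TPM against 5 and 8. *Dag1*, the gene of dystroglycan, which binds laminin-111, had 99 and 87 TPM against 102 and 104 (log2 difference 0.15, 95% interval −0.07 to 0.37).

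Of 18 basement membrane genes 10 were tested, 1 fell with P+B, 0 rose and 9 did not pass, where 2.72% of all genes were called lower. Their median was −0.22, against 0.06 over all genes. The gene that fell was *Col7a1*, whose collagen VII forms the anchoring fibrils that laminin-332 holds. Its DMSO libraries had 47 and 40 TPM, the PFI-3 libraries 25 and 27, the BI-9564 libraries 23 and 19 and the P+B libraries 14 and 17 (a log2 difference of −1.43 between P+B and DMSO, adjusted p = 0.00368 from limma). The nidogen genes *Nid1* and *Nid2*, whose products join laminin-111 and laminin-511 to collagen IV, had differences of −0.14 and −0.14 (adjusted p = 0.725 and 0.543). *Hspg2*, the gene of perlecan, had 139 and 133 TPM against 102 and 104, with an adjusted p of 0.0422 from limma but a difference of −0.40, under 1.5-fold. Of 19 genes of laminin processing and assembly 13 were tested, 3 fell with P+B, 0 rose and 10 did not pass, where again 2.72% of all genes were called lower. Their median was −0.12, against 0.06 over all genes. *Bmp1*, a protease that trims procollagens and laminin chains, had 10 and 11 TPM against 4 and 3 (−1.36, adjusted p = 0.0428). *Mmp14*, a membrane protease of the cell surface, had 16 and 15 TPM against 8 and 6 (−1.06, adjusted p = 0.0414). *Plod3*, which modifies collagen lysines, had 66 and 55 TPM against 33 and 34 (−0.83, adjusted p = 0.0228).

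**Figure D4:**
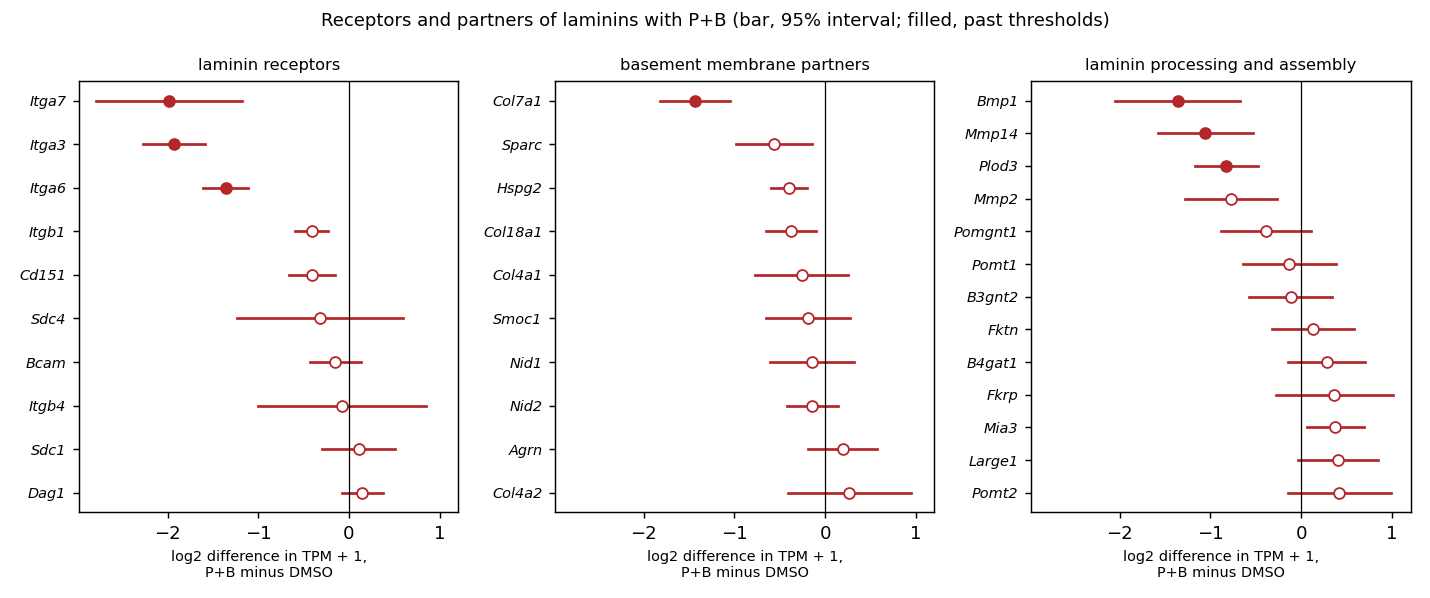
Log2 difference between P+B and DMSO in TPM + 1 for the tested laminin receptors, basement membrane partners and genes of laminin processing and assembly (points are limma estimates from 2 libraries a group, bars their 95% intervals, filled points past both thresholds). Filled points are Itga3, Itga6 and Itga7 among receptors, Col7a1 among basement membrane genes, and Bmp1, Mmp14 and Plod3 among processing genes, all to the left of 0.

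Markers of cell types that make these laminins were read in the same libraries. The 8 ESC markers were all expressed, with summed levels of 3582 to 4763 TPM with DMSO and 3420 to 4373 with P+B. In P+B against DMSO 0 of 8 were called by limma, where 4.0% of all genes were. An unadjusted p under 0.05 was reached by 2 of 8, where 22.6% of all genes had one. *Esrrb*, a pluripotency factor, had 86 and 58 TPM in the DMSO libraries, 128 and 110 after PFI-3, 76 and 54 after BI-9564 and 141 and 100 after P+B. Its log2 difference between P+B and DMSO was 0.74 (adjusted p = 0.12 and, with the replicate block, 0.00486 from limma), and its part in the chain results was not tested. Of 12 markers of extraembryonic endoderm, a source of laminin-111, 8 were at 0 in all 8 libraries. The sum was 4 to 5 TPM with DMSO, 3 to 5 after PFI-3, 3 to 6 after BI-9564 and 6 to 10 with P+B. It was mostly *Gata4*, at 2 and 4 TPM with DMSO and 5 and 5 with P+B, and *Dab2*, at 2 and 1 against 1 and 4. None of the 12 passed the filter, and their part in the chain results was not tested. Of 8 markers of stratified epithelium, the typical source of laminin-332, 5 were at 0 throughout, *Trp63* among them, and the sum was 7 to 9 TPM in the DMSO libraries, 2 to 4 after PFI-3, 3 to 4 after BI-9564 and 0 to 2 after P+B. With DMSO that sum was mostly *Krt5*, at 5 and 7 TPM there, 3 and 1 after PFI-3, 3 and 1 after BI-9564 and 0 and 0 after P+B, and the 2 TPM left after P+B were *Krt10*. *Krt5* was thus highest and lowest in the same groups as *Lama3*. Its part in the result was not tested. Of 8 fibroblast markers, 5 were at 0 throughout, and the sum was 5 TPM or less in every library. *Jun* itself had 1970 and 2877 TPM in the DMSO libraries, 1570 and 2227 after PFI-3, 2071 and 3011 after BI-9564 and 1569 and 2159 after P+B. Within each replicate number *Jun* was lower with P+B than with DMSO (log2 difference −0.37, adjusted p = 0.437 and, with the replicate block, 0.00156 from limma, under 1.5-fold). Its part in the fall of *Lama3* was not tested.

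The mean profile of *Lama3* and *Lamb3* over the 8 libraries was most like those of *Nmd3*, *Gk*, *Ccnb1*, *Zfp651* and *Zbtb2*, with Pearson's r of 0.976 to 0.986 on log2(TPM + 1). The profile weighs both genes alike, and *Lamb3*, at 1 to 3 TPM and below the filter, enters it in steps of 1 TPM. *Nmd3* itself only ranged from 110 to 149 TPM. The mean profile of *Lamb1* and *Lamc1* was most like those of *Gtf2f2*, *Araf*, *Cnot2*, *Ube2e3* and *BC022687*, with r of 0.897 to 0.959. These are the highest values among all genes tested, each over 8 points that share 4 treatments, and they are given as a description only.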

How the data were processed

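RNA-seq libraries were made from poly(A)-selected RNA with a VAHTS mRNA-seq kit. Per the submitters' processing notes, the tools were bcl2fastq, Bowtie2 2.2.5 and RSEM 1.3.0 with the mm10 genome. The authors deposited one table of 50600 rows with a score per gene and library, which is TPM made whole numbers, by a step not given in the sources used here. Annotation and strand use are not given there either. TPM holds no counts, so DESeq2, named in the study's methods, was not run. Groups came from the sample titles, and all 8 columns were used.

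The model was fitted to log2(value + 1) of genes with a mean of at least 5, for all 4 groups together (4 residual degrees of freedom), by lmFit and eBayes with a trend (limma 3.58.1, R 4.3.3). The procedure was tested on simulated data. Replicate numbers are shared by the groups in the labels, and same-numbered samples deviated together (Pearson's r over genes of 0.143 to 0.236 for the 6 group pairs). The numbers were therefore read as pairing the samples. The reported fit has no block, and a fit with the replicate block was run as an alternative. The alternatives also covered pseudocounts, filters, scaling, the variance model, the libraries fitted and each library left out.

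The chains and the lists were chosen with earlier results of these data known. Named genes are the 8 chains, up to 4 called genes per partner list, *Jun* and the 5 genes most like each of 2 profiles. *Itgb1*, *Itgb4*, *Dag1*, *Nid1*, *Nid2*, *Hspg2*, *Esrrb* and other single marker genes were named after their values were seen. Some genes that the naming rule held are not reported here. Positions are from GENCODE M21, promoters from RefSeq. Permutation tests used scipy 1.17.1.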

Additional observations from a re-analysis of the deposited data

How the results depend on the processing

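With the replicate block, the count of called laminin chains was 1 in P+B against BI-9564 in place of 0, through *Lama3*, and among the 8 chains it changed no other call. Among the partner lists it added *Itga3* and *Col7a1* in BI-9564 against DMSO (adjusted p = 0.0318 and 0.0321 from limma). Among ESC markers it added *Esrrb*, higher with P+B, in P+B against DMSO and against BI-9564 (adjusted p = 0.00486 and 0.0118 from limma). In BI-9564 against PFI-3 it added *Klf4*, *Nanog*, *Esrrb*, *Tfcp2l1* and *Zfp42*, all lower with BI-9564 (adjusted p = 0.0144 to 0.0451 from limma). Of the 8 chains, *Lama3* was the 1 called in P+B against DMSO, and 0 were with a mean of at least 20, which removes *Lama3* itself, and with only the libraries compared. Leaving out single libraries gave 0 to 1. In P+B against PFI-3 the count went from 1 to 0 with a pseudocount of 5, a mean of at least 1 or of at least 20, limma without a trend and only the libraries compared, and was 0 to 0 with single libraries left out. In P+B against BI-9564 it was also 1 without a filter. Apart from the filter of 20, the cause of these changes was not tested. Over all genes, the 409 calls in P+B against DMSO became 718 with the replicate block, 907 without a filter and 0 with only the libraries compared. The block raised the calls over all genes from 11 to 156 in BI-9564 against DMSO and from 11 to 151 in BI-9564 against PFI-3. It also raised them from 134 to 351 in P+B against PFI-3 and from 20 to 82 in P+B against BI-9564. In the other 4 comparisons the count of chains was 0 under all alternatives run. The log2 fold change of *Lama3* with P+B ranged from −1.92 to −1.37 over 17 alternatives. Of 318 values of single chains against DMSO under alternatives, 304 kept direction and call, 3 lost a call (all *Lama3* with P+B) and 11 changed sign or reached 0, all for chains other than *Lama3*. Leaving out single libraries, the differences that changed sign with P+B ranged from −0.035 to 0.277 for *Lama5* (below 0 without DMSO replicate 2 or P+B replicate 1) and from −0.126 to 0.116 for *Lamb1* (above 0 without P+B replicate 1). With PFI-3 they ranged from −0.17 to 0.152 for *Lama1* and from −0.448 to 0.162 for *Lamb2* (both above 0 without PFI-3 replicate 1), and from −0.077 to 0.236 for *Lama5* (below 0 without DMSO replicate 2). With BI-9564 they ranged from −0.159 to 0.154 for *Lama5* (above 0 without DMSO replicate 1 or BI-9564 replicate 1) and from 0 to 0.116 for *Lamb1* (0 without BI-9564 replicate 1). Quantile normalization gave 0.031 for *Lama5* and −0.022 for *Lamb1* with BI-9564. Read depth was unknown, and whole-number TPM limits *Lamb3*, *Lama1* and *Lamb1* most.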
